A study of Mus musculus with 6 samples.

Results

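Complex I genes of the nuclear genome were described in single mouse blastocysts. They were chosen by name, as the protein-coding genes whose symbol starts with Nduf in the GENCODE M21 annotation, and 45 of the 12149 genes in the deposited table met this rule. The annotation holds 46 such genes, and the remaining one, Ndufa4l2, was not analysed here. Of the 45, 36 encode subunits of complex I, 8 encode assembly factors (Ndufaf1 to Ndufaf8), and Ndufa4 encodes a protein now assigned to complex IV. By role, the subunits comprised 7 core subunits, 9 accessory subunits of the peripheral arm, 19 accessory subunits of the membrane arm, and Ndufab1, which occurs in both arms. All 45 were detected in all 6 embryos.

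The Dep group consisted of 3 blastocysts grown from zygotes that had received small RNAs from the sperm of males made depressive by stress (F0-Dep). The Ctl group consisted of 3 blastocysts whose zygotes had received sperm small RNAs of normal males (F0-Ctl). All 6 embryos were of C57BL/6 background, were injected at 2 ng/µl, and were collected at embryonic day 3.5, about 96 h after injection. Each embryo was 1 library, and all embryos carried an injection. Uninjected embryos were not analysed here, and nothing in the labels says whether embryos of a group shared parents or a preparation of small RNA. P-values therefore measure the spread between these embryos, which may be partly technical. Values are normalized counts, that is read counts divided by 1 size factor per library, behind which stood 16543356 to 21548220 reads in listed genes. The library of Dep 1 was unlike the rest: 691 listed genes had no read in it, where the other libraries missed 5 to 106. Xist, transcribed from the inactive X chromosome, had 151, 3783 and 5589 normalized counts in Dep 1, 2 and 3, and 10312, 5518 and 874 in Ctl 1, 2 and 3. Ddx3y, a Y-linked gene, had 1424, 266 and 1141 in Dep and 1.18, 1160 and 2202 in Ctl. Dep 2, Dep 3, Ctl 2 and, with less Xist, Ctl 3 thus held both transcripts, and how this bears on their being single embryos was not tested. Of 8 markers of cumulus and granulosa cells, 0 are among the 12149 genes analysed. All 8 trophectoderm markers were above 0 in every embryo. Of 8 primitive endoderm markers Gata4, Sox7 and Sox17 were at 0 in Dep 1 and Gata4 was at 0 in Ctl 3, and of 8 epiblast markers Fgf4 was at 0 in Dep 1.

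Complex I is the entry point of the mitochondrial respiratory chain: it oxidises NADH, passes the electrons along a row of iron-sulphur clusters to ubiquinone, and pumps protons across the inner membrane. Its peripheral arm reaches into the matrix and carries out the electron transfer, its membrane arm pumps, and the pumping core of that arm is encoded by the mitochondrial genome (the mt-Nd genes). The Nduf genes lie in the nucleus, so a complete enzyme needs both genomes and a set of assembly factors that are absent from the finished complex. In the blastocyst, the trophectoderm is known for active mitochondria, whose ATP supports the ion pumps that fill the cavity.

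Promoter sequence was available for 40 of the 45 genes in RefSeq (GRCm38.p6, the assembly that mm10 names), each from 250 bases before to 50 bases after the annotated start. Short motifs of 5 factors or factor families known from promoters of respiratory genes were searched on both strands. NRF1 (GCGCANGCG) was in 10 of 40 windows, or 25% against 14.8% of the 9075 listed genes with a window. YY1 (AAGATGGCG) was in 6 of 40, or 15% against 3.57%. The ETS motif of GABPA (CCGGAAG) was in 6, or 15% against 19.7%, the ERR motif (CAAGGTCA) in 1, or 2.5% against 1.10%, and the SP and KLF motif (GGGCGG) in 21, or 52.5% against 65.5%. A match describes the letters only and is not a measured site.

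Shown here are windows chosen among those 40 genes: the 2 that stood highest in Dep 1 relative to the other embryos (Ndufv3 and Ndufaf7), the 2 that stood lowest there (Ndufaf5 and Ndufv1), and Ndufs6, the only gene whose window held both the NRF1 and the YY1 motif. Capitals mark the motif matches, and all windows are written 5′ to 3′ on the strand of the gene. Ndufv3 lies on the plus strand at chr17:31519865-31520164 and Ndufaf7 on the plus strand at chr17:78936885-78937184. Ndufaf5 lies on the plus strand at chr2:140170396-140170695, Ndufv1 on the minus strand at chr19:4012706-4013005, and Ndufs6 on the minus strand at chr13:73328433-73328732.
Ndufv3: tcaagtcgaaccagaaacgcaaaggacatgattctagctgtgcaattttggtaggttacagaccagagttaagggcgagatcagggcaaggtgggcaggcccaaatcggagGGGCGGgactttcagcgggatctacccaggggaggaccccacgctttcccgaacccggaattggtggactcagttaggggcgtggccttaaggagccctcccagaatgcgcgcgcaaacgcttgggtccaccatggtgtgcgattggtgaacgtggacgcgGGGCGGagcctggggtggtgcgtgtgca
Ndufaf7: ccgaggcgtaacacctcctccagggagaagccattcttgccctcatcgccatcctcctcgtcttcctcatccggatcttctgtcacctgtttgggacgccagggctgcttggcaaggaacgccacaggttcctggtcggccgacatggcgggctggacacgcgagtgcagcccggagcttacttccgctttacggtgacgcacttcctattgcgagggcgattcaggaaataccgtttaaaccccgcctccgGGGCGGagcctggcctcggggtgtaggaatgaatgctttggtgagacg
Ndufaf5: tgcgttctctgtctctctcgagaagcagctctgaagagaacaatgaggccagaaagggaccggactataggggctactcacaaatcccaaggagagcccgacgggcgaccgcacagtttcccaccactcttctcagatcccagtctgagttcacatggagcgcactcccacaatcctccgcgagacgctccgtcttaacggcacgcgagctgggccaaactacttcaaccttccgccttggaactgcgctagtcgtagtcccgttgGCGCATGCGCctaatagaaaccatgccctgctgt
Ndufv1: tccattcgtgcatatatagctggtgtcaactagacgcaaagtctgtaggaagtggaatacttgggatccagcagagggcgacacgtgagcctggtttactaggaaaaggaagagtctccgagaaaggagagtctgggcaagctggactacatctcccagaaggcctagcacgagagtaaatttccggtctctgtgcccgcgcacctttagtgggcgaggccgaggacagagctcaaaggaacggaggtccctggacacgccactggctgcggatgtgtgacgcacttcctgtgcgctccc
Ndufs6: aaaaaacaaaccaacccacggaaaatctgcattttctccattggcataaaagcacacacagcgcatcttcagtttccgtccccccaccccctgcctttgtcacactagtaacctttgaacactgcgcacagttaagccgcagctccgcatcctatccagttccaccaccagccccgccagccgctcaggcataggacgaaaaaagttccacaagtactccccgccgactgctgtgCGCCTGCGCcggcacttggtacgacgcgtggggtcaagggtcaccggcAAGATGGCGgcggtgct
Ndufv3 held 2 SP and KLF matches and Ndufaf7 held 1, Ndufaf5 held 2 overlapping NRF1 matches, Ndufs6 held 1 NRF1 and 1 YY1 match, and Ndufv1 held none of the 5 motifs. These 5 genes were picked from the embryo pattern and the motif matches, so the windows serve as illustration.

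Dep embryos were set against Ctl embryos to ask whether sperm small RNAs of stressed males alter expression in the early embryo. No complex I gene differed between the groups beyond the spread of the embryos. Limma, fitted to log2(normalized count + 1) over all genes with Benjamini-Hochberg adjustment, called 0 of the 45 genes at an adjusted p of 0.05, where 0% of all genes were called. At an unadjusted p under 0.05, it took 0 of the 45, against 1.85% of all genes (225), of which 101 were higher in Dep (0.831%) and 124 lower (1.02%). The count over all genes was 420 (3.46%) with the replicate number as a block, again with 0 of the 45. edgeR called 0 genes overall and had 211 (1.74%) at the unadjusted threshold. DESeq2 called 1 (0.00823%), which is not an Nduf gene, and had 279 (2.3%). The ranges of Dep and Ctl overlapped for every one of the 45 genes, whereas they did not overlap in 6.9% of all genes.

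Log2 folds of the 45 genes ran from -0.34 to 0.57. Subunits had a median log2 fold of 0.10, with 26 of 36 above 0, and assembly factors a median of 0.11, with 7 of 8 above 0, beside a median of -0.02 and 48.2% above 0 over all genes. These signs rested on Dep 1. Without it the median was -0.25 for subunits and -0.07 for assembly factors, and without Dep 3 it was 0.33 and 0.35. With Dep 2, Dep 3 and Ctl 2 left out, the 3 libraries with the most Xist among those that also held Ddx3y, Dep 1 alone stood against Ctl 1 and Ctl 3, and the lone Dep embryo had to be assumed to vary like the Ctl embryos. In that fit, added after seeing the data, limma called 1 of the 45 genes, Ndufaf7 (log2 fold 1.63 ± 0.49, SE; adjusted p = 0.0476), against 4.77% of all genes (580). At an unadjusted p under 0.05 it took 16 of the 45, against 18.5% of all genes (2253), and the median for subunits was 0.77. It describes Dep 1 rather than the group. The plot of log2 folds shows that the standard errors of 43 of 45 genes reached 0, the exceptions being Ndufv1 and Ndufaf7.

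**Figure D1:**
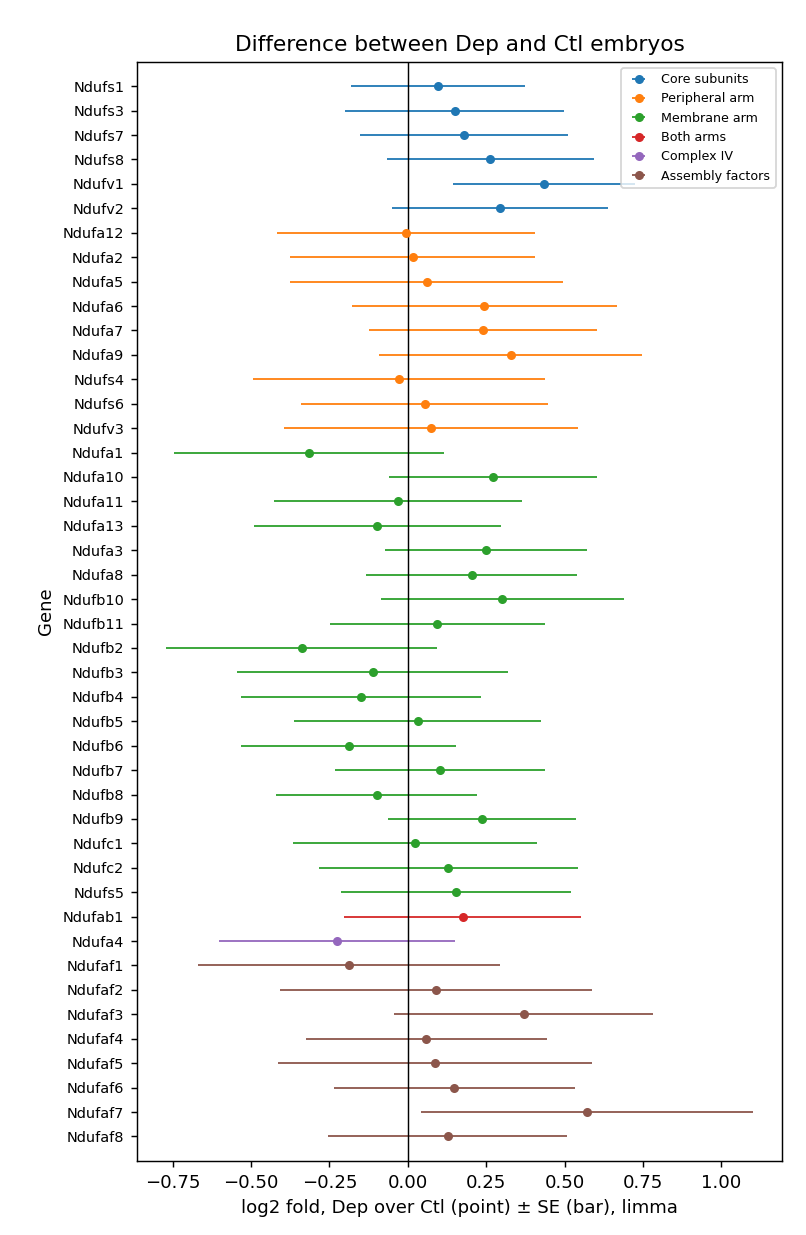
Log2 fold of 44 of the 45 Nduf genes, Dep over Ctl, on the log2(normalized count + 1) scale (x axis), with points for the estimate and bars for ± 1 SE from limma over 3 embryos per group, coloured by role. The estimates run from -0.34 (Ndufb2) to 0.57 (Ndufaf7), and none passed the adjusted threshold.

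Among the 7 core subunits, each of which has a bacterial counterpart and takes part in catalysis, all 7 log2 folds were above 0 (median 0.18, range 0.10 to 0.43). Without Dep 1, 4 of them were below 0, at -0.039 for Ndufs1, -0.20 for Ndufs3, -0.20 for Ndufs7 and -0.073 for Ndufv2. Without Ctl 3, Ndufs1 and Ndufs3 were among those below 0, and with library weights Ndufs7 was. Ndufv1, which binds FMN and takes the electrons from NADH, had the smallest p of the 45 genes. It had 2671, 3643 and 2398 normalized counts in Dep 1, 2 and 3, against 1967, 2794 and 1719 in Ctl 1, 2 and 3. Dep 1 and Dep 3 lay within the range of the Ctl embryos, and Dep 2 lay above it. Its log2 fold was 0.43 ± 0.29 (SE; limma, unadjusted p = 0.166, adjusted p = 0.9997). Taken by number, it was higher in Dep in each of 3 pairs, by 1.36, 1.30 and 1.39 times, and the fit with that block gave 0.43 ± 0.19 (SE; unadjusted p = 0.0579, adjusted p = 0.941). Pairing by number was taken from these same data. Ndufs1 and Ndufs8 were also higher in each pair. Over the 45 genes, 5 were higher in every pair and 2 were lower, where 12.6% of all genes were higher and 12.6% were lower.

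Ndufv2, the partner of Ndufv1 in the NADH module, had 8061, 3831 and 3693 normalized counts in Dep and 5012, 3871 and 3192 in Ctl. Dep 1 was the highest embryo, and the other Dep embryos lay among the Ctl embryos. Ndufs1, the largest core subunit, carrying several of the iron-sulphur clusters, had 2324, 1973 and 1566 in Dep and 2133, 1836 and 1503 in Ctl, a nearly complete overlap and the smallest ratio of highest to lowest embryo, 1.55, of the 45 genes. Ndufs7, holder of the last cluster before ubiquinone, had 8190, 3805 and 3634 in Dep and 4316, 4572 and 3952 in Ctl. Here Dep 1 lay far above the Ctl embryos and Dep 2 and Dep 3 lay below all of them. Ndufs3, a structural subunit of the ubiquinone module, had 5429, 3160 and 2204 in Dep and 3733, 3097 and 2395 in Ctl. Ndufs8, which holds further clusters, had 4293, 3125 and 1990 in Dep and 3059, 2595 and 1944 in Ctl. In both, the Dep embryos spanned a wider range than the Ctl embryos.

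**Figure D2:**
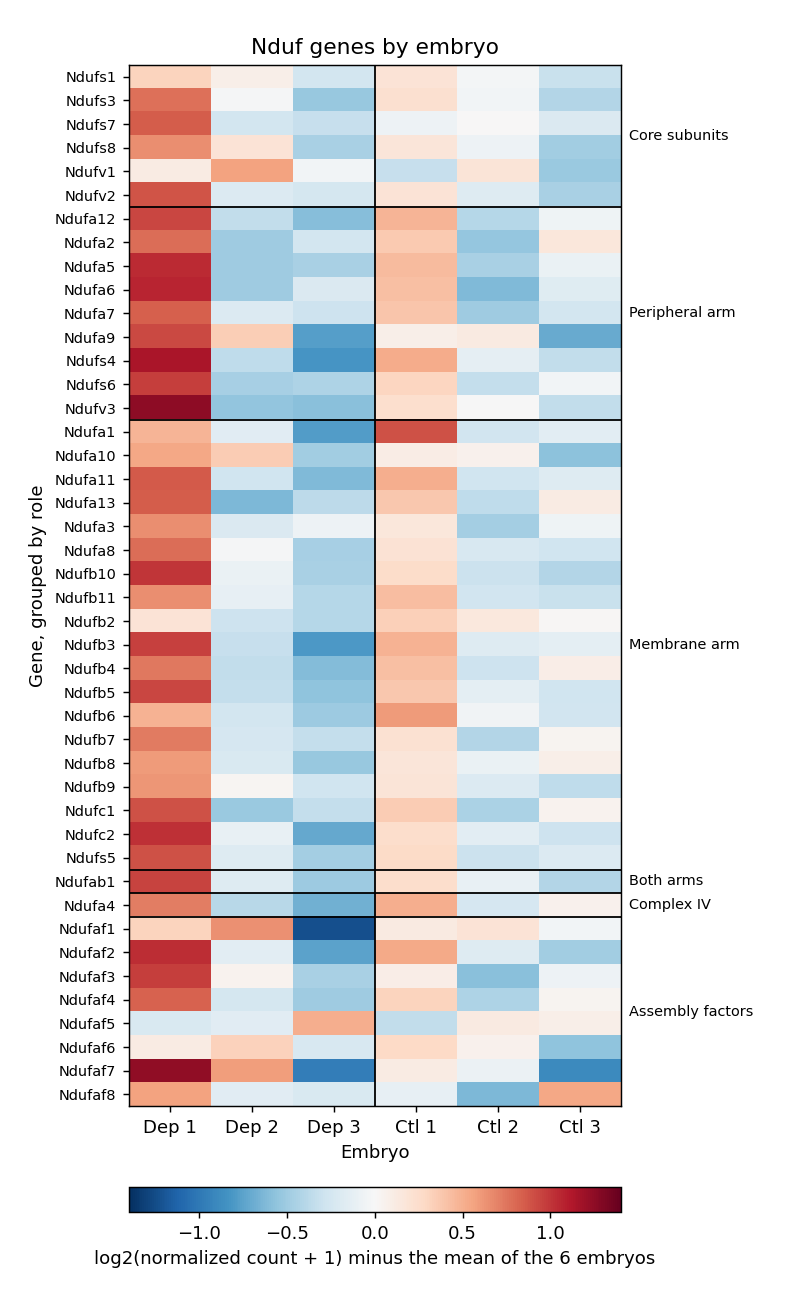
Level of 44 of the 45 Nduf genes (rows, grouped by role) in each embryo (columns), as log2(normalized count + 1) minus the mean of the 6 embryos, red above and blue below that mean. Dep 1 holds the highest value of 37 of the 45 genes and Dep 3 the lowest of 25, and the genes with their highest value elsewhere include Ndufv1, Ndufa1, Ndufb2, Ndufb6, Ndufaf1, Ndufaf5 and Ndufaf6.

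The 9 accessory subunits of the peripheral arm, which stabilise the catalytic core, had a median log2 fold of 0.06 (range -0.03 to 0.33), with 7 above 0. All 9 were highest in Dep 1. Ndufa9, a nucleotide-binding subunit near the junction of the arms, had 7598, 5080 and 2353 normalized counts in Dep and 4260, 4379 and 2462 in Ctl. Dep 1 and Dep 2 exceeded the Ctl embryos and Dep 3 lay below them. Without Dep 3, when 2 of the 45 genes (Ndufa9 and Ndufaf7) and 4.74% of all genes were at an unadjusted p under 0.05, its log2 fold was 0.79 ± 0.35 (SE; limma, unadjusted p = 0.0447, adjusted p = 0.838). Without Dep 1 the log2 fold of Ndufa9 was -0.051, and without Ctl 3 it was 0.058. Ndufa6, a protein of the LYR family that binds Ndufab1, had 6407, 2154 and 2652 in Dep and 4086, 1981 and 2721 in Ctl, with Dep 2 and Dep 3 inside the range of Ctl. Ndufa7 had 4401, 2151 and 2011 in Dep and 3218, 1739 and 2063 in Ctl, in the same arrangement. Ndufv3, an accessory subunit of the NADH module, had 2607, 748 and 731 in Dep and 1294, 1091 and 866 in Ctl, so that Dep 2 and Dep 3 both lay below every Ctl embryo while Dep 1 was at 2.02 times the highest of them, Ctl 1. The remaining 5 (Ndufa2, Ndufa5, Ndufa12, Ndufs4 and Ndufs6) had log2 folds between -0.03 and 0.06.

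The 19 accessory subunits of the membrane arm had a median log2 fold of 0.03 (range -0.34 to 0.30), with 11 above 0 and 8 below. Ndufa10, which resembles nucleoside kinases, had 5971, 5246 and 2940 normalized counts in Dep and 4423, 4296 and 2759 in Ctl. It was higher in Dep within each pair, yet the spread inside each group was larger than the distance between the groups (log2 fold 0.27 ± 0.33, SE). Ndufb9, an LYR protein of the far end of the arm, had 6805, 4529 and 3652 in Dep and 5044, 3907 and 3485 in Ctl, and was likewise higher in each pair. Ndufb10, a subunit facing the intermembrane space, had 3533, 1654 and 1288 in Dep and 2108, 1437 and 1326 in Ctl, with Dep 3 the lowest embryo and Dep 1 the highest. Ndufb2, a small single-span subunit, had 253, 181 and 168 in Dep and 280, 245 and 225 in Ctl. Dep 2 and Dep 3 were below all Ctl embryos and Dep 1 was between them, for the lowest log2 fold of the set (-0.34 ± 0.43, SE). Ndufb6 was the other gene lower in each pair. Among the remaining 14, Ndufa1, an X-linked gene named after its values were seen, had 1013, 650 and 423 in Dep and 1354, 604 and 656 in Ctl. Its highest embryo was Ctl 1, which also had the most Xist and the least Ddx3y, and the groups overlapped. Ndufb11, also X-linked, was instead highest in Dep 1, the embryo with the least Xist, at 3283 against 2823 in Ctl 1. The autosomal Ndufb2 and Ndufb6 were highest in Ctl 1, as Ndufa1 was. The part of sex in these values was not tested.

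Ndufab1, the mitochondrial acyl carrier protein, which also serves fatty acid synthesis in the matrix, had 6895, 3157 and 2514 normalized counts in Dep and 4248, 3336 and 2682 in Ctl. Dep 1 was high and the other Dep embryos were inside or below the range of Ctl (log2 fold 0.18 ± 0.38, SE). Ndufa4, described as a complex IV subunit despite its name, had 5275, 2450 and 2004 in Dep and 4553, 2717 and 3344 in Ctl. It showed the same high Dep 1, with Dep 2 and Dep 3 below all Ctl embryos (log2 fold -0.23 ± 0.38, SE).

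The 8 assembly factors had a median log2 fold of 0.11 (range -0.19 to 0.57). Ndufaf7, a methyltransferase that acts early in assembly, had the highest log2 fold of all 45 genes, 0.57 ± 0.53 (SE; limma, unadjusted p = 0.304). Its normalized counts were 1884, 1190 and 405 in Dep and 859, 751 and 429 in Ctl, a 4.65-fold range over the 6 embryos, the widest of the set. Dep 1 and Dep 2 exceeded all Ctl embryos and Dep 3 was below them. Without Dep 3 the log2 fold was 1.20 ± 0.40 (SE; unadjusted p = 0.0140, adjusted p = 0.838). Without Dep 1 it was 0.091, and without Ctl 3 it was 0.27. In the authors' deposited table Ndufaf7 had a log2 fold of 0.77 with an unadjusted p of 0.127. Ndufaf3, which acts early on the ubiquinone module with Ndufaf4, had 1210, 642 and 452 in Dep and 664, 414 and 590 in Ctl, with Dep 1 alone above the range of Ctl. Ndufaf1, of the complex that builds the membrane arm, had 600, 756 and 205 in Dep and 528, 551 and 471 in Ctl, and the Ctl embryos were close together while Dep embryos lay on both sides of them. Ndufaf6 had 433, 500 and 342 in Dep and 485, 415 and 270 in Ctl, an overlap of all but the extremes. Ndufaf5, which hydroxylates Ndufs7, had 136, 141 and 224 in Dep and 124, 173 and 167 in Ctl. It was the only one of the 45 genes that peaked in Dep 3, and was named after its values were seen. Ndufaf2, Ndufaf4 and Ndufaf8 had log2 folds between 0.06 and 0.13.

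Of 9 listed genes for other assembly proteins of complex I, 0 were called (limma), 7 had log2 folds above 0, and the median was 0.16. Ecsit, a partner of Ndufaf1 in the membrane arm assembly complex, had 618, 475 and 515 normalized counts in Dep and 323, 422 and 357 in Ctl. Its groups did not overlap, each Dep embryo being above each Ctl embryo, but the log2 fold of 0.54 ± 0.34 (SE) had an unadjusted p of 0.142 and an adjusted p of 0.9997. Tmem126b, from the same complex, had 852, 512 and 355 in Dep and 301, 513 and 389 in Ctl, with only Dep 1 outside the range of Ctl. Acad9, a further partner, chosen after its values were seen, did not overlap either and was lower in Dep (4163, 4643 and 4435 in Dep, 4897, 5079 and 5435 in Ctl; limma, unadjusted p = 0.372). The groups thus did not overlap for 2 of these 9 genes, in opposite directions, beside 6.9% of all genes.

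The main variation of the complex I genes was between embryos of one group. Dep 1 held the highest value of 31 of 36 subunits and 5 of 8 assembly factors, or 37 of the 45 genes, against 24.3% of all genes. Dep 3 held the lowest value of 25 of the 45, against 15.4% of all genes. The mean log2 level of the 36 subunits was 11.77, 10.83 and 10.56 in Dep 1, 2 and 3, against 11.31, 10.81 and 10.78 in Ctl 1, 2 and 3, and the group values were 11.06 ± 0.64 in Dep and 10.97 ± 0.29 in Ctl (SD, n = 3 each). The number 1 embryo was highest in both groups. The mean log2 level of the assembly factors was 9.67, 9.17 and 8.58 in Dep, against 9.19, 8.87 and 8.89 in Ctl. In the plot of group levels, the excess of Dep 1 is smaller for the core subunits, whose mean was 11.99, 11.56 and 11.17 in Dep and 11.54, 11.46 and 11.05 in Ctl, than for the peripheral arm, at 11.96, 10.63 and 10.48 in Dep and 11.33, 10.65 and 10.76 in Ctl; this difference between roles was not tested.

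**Figure D3:**
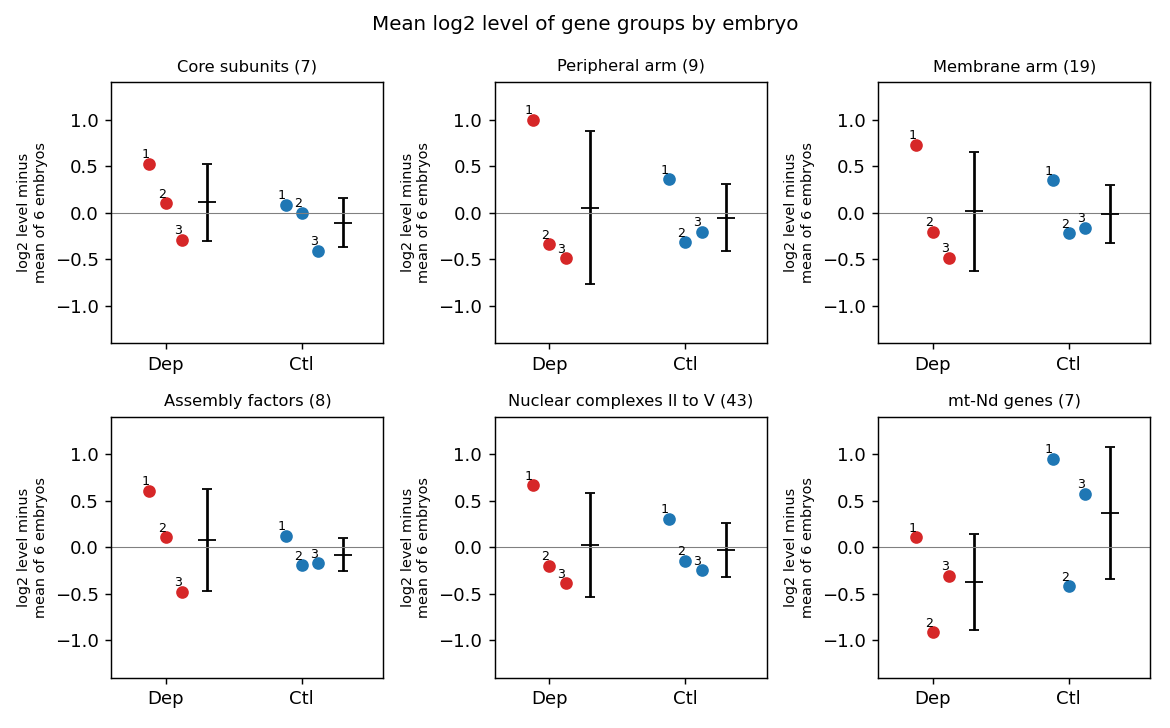
Mean log2 level of each gene group by embryo, minus its mean over 6 embryos (y axis), for Dep (red, left) and Ctl (blue, right), with the embryo number beside each point and the mean ± SD of 3 embryos in black. Embryo 1 is the highest of its group in the 5 nuclear groups and for the mt-Nd genes. Across the 6 embryos the mt-Nd genes give a different order, with Ctl 1 and Ctl 3 highest.

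Most subunits varied together from embryo to embryo. The Pearson correlation of a gene with the mean of the other subunits over the 6 embryos, given as a description, was 0.992 for both Ndufb5 and Ndufs5 and 0.987 for Ndufs4. It was low for Ndufv1 (-0.03), a core subunit, and negative for Ndufaf5 (-0.74). The points share libraries and size factors. Among 9568 other genes with a mean of 100 or more, 31 (0.324%) correlated above 0.98 with the mean of the subunits, and the 6 highest were Eif3j1, Prelid2, Anapc10, Chchd10, Atp5g3 and Dnajc2 (0.998 to 0.993). Atp5g3, which encodes the c subunit of ATP synthase, had 21614, 8255 and 6391 normalized counts in Dep and 13606, 9211 and 7820 in Ctl.

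Several library measures moved with this pattern, and their part in it was not tested. Complex I transcripts are short, with a median length of 908 bases against 2687 over all listed genes, taken from the principal transcript of each gene. Dep 1 was high for short transcripts in general: relative to the mean of the other 5 embryos, its log2 level had a median of 0.62 in 592 genes up to 700 bases, 0.51 in 639 genes up to 1000 bases and 0.35 in 1311 genes up to 1500 bases, and -0.27 in 1857 genes over 5000 bases. The corresponding medians of the Nduf genes were 0.94 for 15 genes, 0.91 for 10 and 1.07 for 11 in the same 3 length ranges. Within the 45 genes the excess in Dep 1 had no slope with length (Spearman's rho 0.03 across genes, which are not independent), against -0.24 across 11829 genes. With each library's trend on length removed, the median excess of the 36 subunits in Dep 1 was 0.51, against 1.01 before, and Dep 1 was still the highest embryo for 29 of 36, against 25.6% of all genes. The median log2 fold between the groups was then 0.03 for subunits.

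**Figure D4:**
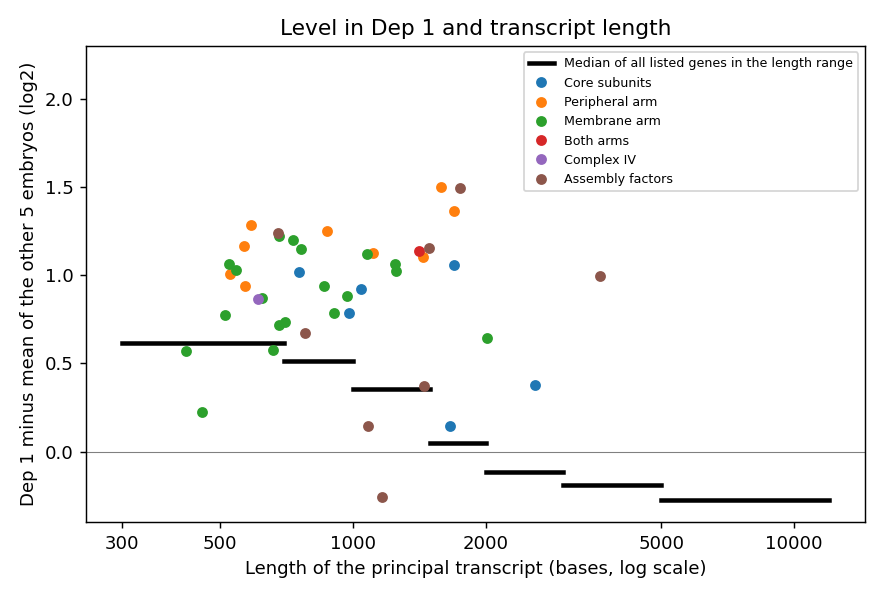
Log2 level in Dep 1 minus the mean of the other 5 embryos (y axis) against the length of the principal transcript in bases (x axis, log scale), for 44 of the 45 Nduf genes coloured by role, with black lines for the median of all listed genes in 7 length ranges (the outer ends of the first and last are drawn for display). Nduf genes lie mostly above the lines, which run from 0.62 in the shortest range to -0.27 in the longest.

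Summed trophectoderm markers were also high in Dep 1. The normalized counts of the 8 markers summed to 141328, 49445 and 52039 in Dep 1, 2 and 3, and 92624, 75112 and 57385 in Ctl 1, 2 and 3, mostly from Krt18, Dppa1 and Krt8. The other 5 summed to 19369, 9995 and 14112 in Dep and 15720, 12726 and 15596 in Ctl, and among them Tfap2c was lowest in Dep 1 and Elf5 was highest in Ctl 2. The 8 epiblast markers summed to 6073, 13443 and 10746 in Dep and 8647, 10787 and 7702 in Ctl, and the 8 primitive endoderm markers to 25773, 20590 and 24496 in Dep and 22789, 24333 and 20699 in Ctl, mostly from Dab2. Without Dab2 the other 7 summed to 3688, 8017 and 11578 in Dep and 7227, 9000 and 7537 in Ctl, with Dep 1 the lowest embryo. In whole embryos, a different share of cells of a type and a different amount of RNA per cell cannot be told apart.

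The 43 nuclear genes of complexes II to V had the same embryo order at its top, with 36 of 43 highest in Dep 1, a median log2 fold of 0.07, and 0 called (limma). Uqcrc1, a core protein of complex III, had 9721, 11514 and 6531 normalized counts in Dep and 6646, 9137 and 5047 in Ctl. Atp5s had 387, 519 and 292 in Dep and 498, 358 and 785 in Ctl. Both overlapped between the groups. Of the 43 genes, 1 (Sdha) did not, beside 6.9% of all genes. The 7 mt-Nd genes, which encode further subunits of complex I, were lower in Dep on average (7 of 7 log2 folds below 0, median -0.73, 0 called). Among them mt-Nd2 had the smallest p, with 53818, 21492 and 34649 normalized counts in Dep and 97060, 36724 and 88150 in Ctl (log2 fold -0.99 ± 0.47, SE; limma, unadjusted p = 0.0598). mt-Nd5 had 77524, 62742 and 64908 in Dep and 165788, 77293 and 118737 in Ctl, where Dep 1 was above Ctl 2. Reads of the 36 nuclear subunits numbered 120423, 78791 and 74603 in Dep and 85442, 89738 and 79761 in Ctl, whereas those of the mt-Nd genes numbered 339284, 250592 and 361949 in Dep and 613074, 390594 and 688020 in Ctl. The ratio of nuclear to mitochondrial complex I reads was thus 0.355, 0.314 and 0.206 in Dep and 0.139, 0.230 and 0.116 in Ctl, with Dep 3 below Ctl 2 as the single overlap. Taken by number, the ratio was higher in Dep in each of 3 pairs, by 2.55, 1.37 and 1.78 times. Each of the 7 mt-Nd genes was lower in Dep in each pair, where 12.6% of all genes were. These 7 genes share each library's mitochondrial read share, so they are not independent observations. That share, over all mitochondrially encoded genes, was 3.710%, 3.054% and 4.003% in Dep 1, 2 and 3. In Ctl 1, 2 and 3 it was 7.018%, 3.855% and 7.044%, so it too was lower in Dep in each pair. The nuclear reads in the ratio were highest in Dep 1. Whether the mt-Nd genes or the ratio differed beyond the total mitochondrial share was not tested. With the pairs as a block, limma took 5 of the 7 at an unadjusted p under 0.05, against 3.46% of all genes, and 0 without it. The pairing was taken from these same data, so the blocked p-values are not independent support. Over all genes, the block raised the count at that threshold from 225 to 420. For mt-Nd2 the blocked fit gave -0.99 ± 0.21 (SE; unadjusted p = 0.00197, adjusted p = 0.941). Of 15 listed genes for mitochondrial biogenesis and mtDNA expression, 3 had log2 folds above 0 (median -0.18, 0 called), among them Tfb1m, a methyltransferase of mitochondrial ribosomal RNA, at 528, 492 and 345 normalized counts in Dep and 408, 279 and 242 in Ctl. Twnk, the helicase of mtDNA, had 441, 243 and 370 in Dep and 453, 523 and 581 in Ctl, with every Dep embryo below every Ctl embryo (log2 fold -0.60 ± 0.37, SE; limma, unadjusted p = 0.139). Of 13 listed genes of mitochondrial import, chaperones and matrix, 11 were above 0 (median 0.19, 0 called). Phb, a scaffold protein of the inner membrane, had 6359, 7682 and 4519 in Dep and 5070, 4739 and 3842 in Ctl. Timm44, a tether of the import motor, had 1947, 1592 and 1690 in Dep and 1363, 1226 and 1534 in Ctl, without overlap (log2 fold 0.34 ± 0.26, SE; unadjusted p = 0.214). Twnk was 1 of 15 and Timm44 1 of 13 genes of their lists without overlap, beside 6.9% of all genes.

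To compare levels between genes, FPKM was computed from reads and the length of the principal transcript. Subunits had a median of 147 FPKM in Dep and 126 FPKM in Ctl, and assembly factors 24.2 FPKM in Dep and 19.9 FPKM in Ctl. Over the 6 embryos, the subunits ranged from 26.8 to 348 FPKM and the assembly factors from 7.64 to 58.7 FPKM. The 5 highest were Ndufb9, at 378 FPKM in Dep and 319 FPKM in Ctl, Ndufs7, at 362 FPKM in Dep and 308 FPKM in Ctl, Ndufa6, at 332 FPKM in Dep and 268 FPKM in Ctl, Ndufa4, at 279 FPKM in Dep and 314 FPKM in Ctl, and Ndufa7, at 285 FPKM in Dep and 239 FPKM in Ctl. Neighbours in the order of all 45 overlapped within ± 1 SD, except Ndufaf4 above Ndufaf5 in both groups and, in Ctl, Ndufb2, which lay above both of its neighbours, Ndufaf7 and Ndufaf3. With the principal transcript, the 5 lowest by the mean of 6 embryos were all assembly factors. They were Ndufaf3 at 23.7 FPKM, Ndufaf6 at 20.4 FPKM, Ndufaf1 at 19.2 FPKM, Ndufaf4 at 18.7 FPKM and Ndufaf5 at 7.64 FPKM. The order of the 45 genes was nearly the same in both groups (Spearman's rho 0.987 across genes).

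**Figure D5:**
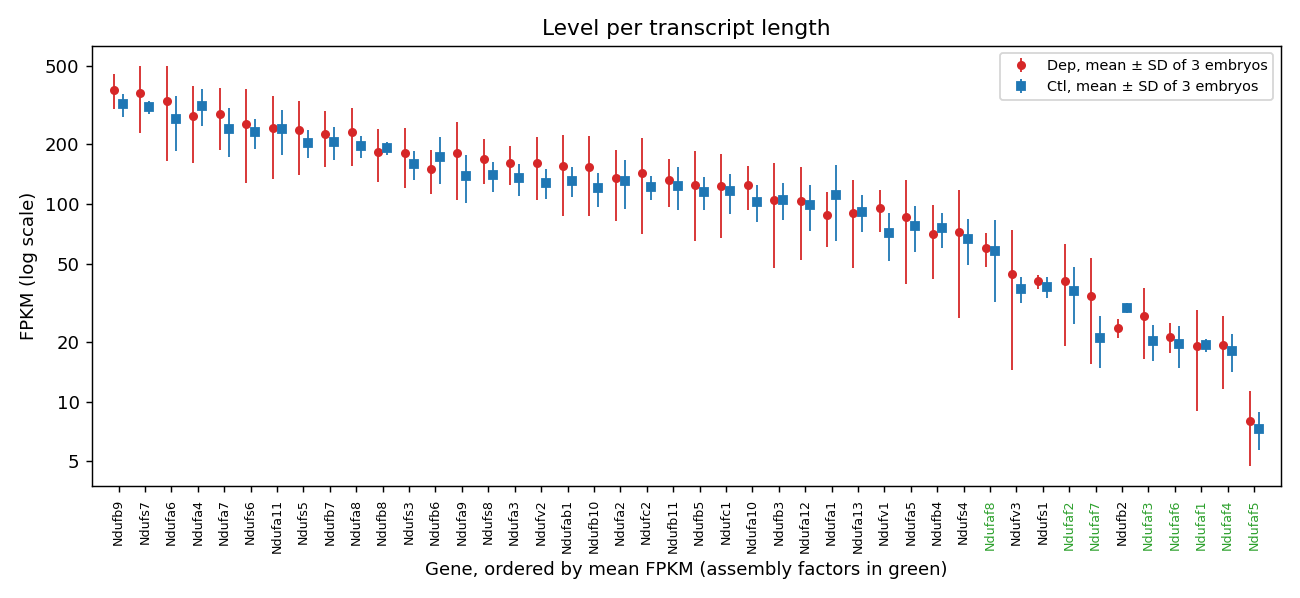
FPKM (y axis, log scale) of 44 of the 45 Nduf genes, ordered by their mean over 6 embryos, in Dep (red circles) and Ctl (blue squares), with bars for ± 1 SD of 3 embryos and assembly factors named in green. The assembly factors lie between 7.64 and 58.7 FPKM on average, at the low end, where Ndufb2 is the lowest subunit at 26.8 FPKM.

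Ndufb2, at 23.7 FPKM in Dep and 29.9 FPKM in Ctl, was the lowest subunit and stood below Ndufs1 and Ndufv3, the next ones, at 39.4 and 40.7 FPKM over the 6 embryos. Its locus overlaps Gm42420 on the same strand and Braf on the other in GENCODE M21, and the pseudogene Gm13186 matches 69.5% of its transcript at 92.1% identity, so the reads assigned to it are uncertain. Pseudogenes that match at least 50% of the principal transcript at 90% identity or more were found for 8 of the 45 genes. Among them Gm12251 matches Ndufs3 at 98.6% and BC002163, itself listed, matches Ndufs5 at 99.4%. Ndufa11, Ndufa7, Ndufb7, Ndufb11 and Ndufs6 are the others. The library kit does not mark strand, so reads of these genes and of the listed genes that overlap 12 of the 45, such as Eef1b2 at Ndufs1 and Mrpl36 at Ndufs6, cannot be told apart by strand. FPKM also depends on the transcript chosen. By the summed exons of each gene in place of the principal transcript, Ndufb9 was still highest. Ndufs7 was at rank 5, Ndufa4 at 8, Ndufa6 at 18 and Ndufa7 at 22. The lowest were then Ndufb2 (rank 45), Ndufaf5 (44), Ndufaf2 (43), Ndufs1 (42) and Ndufaf7 (41), with subunits among them.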

How the data were processed

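RNA of 6 single embryos was analysed, 3 Dep and 3 Ctl. Per the labels' protocols, cDNA was made with a SMART-Seq v4 kit, which does not mark strand. HISAT2, Cufflinks 2.2.1 and mm10 appear in the submitters' processing notes, with no role stated. Which program counted reads is not given in the sources used here. Each deposited signal value is, judging from the numbers, a count over a size factor of its library. Beside them stand, per the file headers, the authors' mean, log2 fold change with its standard error, test statistic (score), p-value and adjusted p-value. Dividing by the step between low values gave whole reads for 100% of values in every library, within 0.01. For Dep 2 the step is 0.993, too near 1 to be told from unscaled counts by its size. The lowest mean listed is 14.2 normalized counts.

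Of 12149 identifiers, 11829 matched GENCODE M21 (GRCm38). Log2(value + 1) was fitted over all genes by limma 3.58.1 with a mean-variance trend in R 4.3.3, and tested on simulated data first. The recovered reads also went through edgeR 4.0.16 and DESeq2 1.42.0, as alternatives, whose results the closing section gives. Log2 folds understate changes of low genes. Principal transcripts were taken by APPRIS rank, then support level, then the shorter, and FPKM is scaled to the reads in listed genes (16543356 to 21548220 per library). Copies were found with BLAST 2.17.0. Values in every embryo are given for the core subunits, Ndufab1, Ndufa4, the 4 genes of smallest unadjusted p in each arm and among the assembly factors, and the 2 of smallest p in other lists. Of the genes the rule took, 1 is not reported here. The members and lists were chosen with earlier results of these data known. Without molecular identifiers in the protocol, reads cannot be taken as independent molecules.

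Same-numbered embryos deviated together from their group means across genes (r = 0.133, 0.151 and 0.129, each over 0.1). Embryos were therefore also compared as pairs by number, and the number was a block in alternative fits. The main limma fit had no block, so its p-values are unpaired. Pairing by number comes from the data and not from the labels. A chi-square comparison of reads found no duplicate libraries.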

Additional observations from a re-analysis of the deposited data

How the results depend on the processing

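No Nduf gene was called under 18 of the 19 alternatives, and 1 gene overall was called by DESeq2 (Ly6a). The exception set Dep 1 alone against Ctl 1 and Ctl 3, added after seeing the data, with 580 genes called, 1 of them Ndufaf7 (1.63), 2253 genes and 16 Nduf genes at an unadjusted p under 0.05, and a subunit median of 0.77. There Ndufa4 turned to 0.43, Ndufaf1 to 0.27 and Ndufb2 to 0.0072. The median log2 fold of subunits kept its sign and stayed between 0.03 and 0.20 under the pseudocounts of 0.5 and 10, the minimum mean of 100, TMM rescaling, quantile normalization, edgeR, DESeq2, the replicate block (0.10) and the removal of the length trend, and turned to -0.065 with library weights, in which Dep 1 had a weight of 0.314. With one embryo left out it ran from -0.25 to 0.33, and that of assembly factors from -0.069 to 0.35. Without Dep 1 and Ctl 1 together, an alternative added after seeing the data like the length correction, the medians were -0.14 and -0.024. Genes at an unadjusted p under 0.05 numbered 399 with library weights, 420 with the replicate block, 400 with the block and length correction, 340 without Dep 1 and Ctl 1, and 122 to 576 with one embryo left out, and Nduf genes among them 0 to 2.

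Ndufv3 turned to -0.022 with quantile normalization, -0.30 with library weights, -0.040 with length correction, with or without the block, and -0.39 without Dep 1 and Ctl 1. Ndufaf1 turned to 0.011 with edgeR and 0.0087 with DESeq2. Library weights gave -0.036 for Ndufa6, -0.043 for Ndufab1 and -0.065 for Ndufs7. Leaving out Dep 1 and Ctl 1 gave -0.086 for Ndufab1, -0.045 for Ndufs3 and -0.19 for Ndufs7. With one embryo left out the log2 folds ran from -0.64 to 0.056 for Ndufa4, -0.23 to 0.56 for Ndufa6, -0.12 to 0.50 for Ndufa7, -0.051 to 0.79 for Ndufa9, -0.25 to 0.47 for Ndufab1, -0.56 to 0.38 for Ndufaf1, -0.019 to 0.69 for Ndufaf3, -0.095 to 0.33 for Ndufaf6, -0.12 to 0.60 for Ndufb10, -0.010 to 0.44 for Ndufb9, -0.039 to 0.25 for Ndufs1, -0.20 to 0.45 for Ndufs3, -0.20 to 0.39 for Ndufs7, -0.073 to 0.49 for Ndufv2 and -0.53 to 0.38 for Ndufv3. Ndufv1, Ndufaf7, Ndufa10 and Ndufs8 kept their sign under all alternatives, but not their size. With 1 embryo left out, Ndufv1 ran from 0.26 to 0.64 and Ndufa10 from 0.051 to 0.58. Ndufaf7 ran from 0.091 to 1.20 and Ndufs8 from 0.0021 to 0.56, both lowest without Dep 1. The causes were not tested. With 3 embryos a group, an exact two-sided permutation test cannot go below 0.1.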
